A study of Mus musculus with 9 samples.

Results

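The interleukin-1 family comprises secreted cytokines, their natural antagonist and the receptors that bind them, and 8 of its genes were examined in mouse 3T3 fibroblasts, an immortalised embryonic line. The 8 genes (Il1a, Il1b, Il1rn, Il33, Il18, Il1r1, Il1r2 and Il1rap) were chosen by family membership, and each was to be represented by the transcript cluster with the highest mean over all arrays among those annotated with its symbol alone. A transcript cluster is the unit to which the array summarises its probes, usually 1 per gene. Each of 7 members had exactly 1 such cluster, so the level decided nothing. Il1r1 had no cluster annotated with its symbol, alone or with other symbols, and was not analysed here. These 7 stood among 19698 genes tested. The family was picked with earlier results of these arrays known, including the strong response of Il1a, whose values are therefore given as a description of that response and not as independent support for it.

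RNA was hybridised to 9 Affymetrix mouse Gene 1.0 ST arrays in 3 groups of 3, whose replicates were separate cultures made on different days. BAF-knockdown cells received mouse TNF-α at 5 ng/ml for 1 h, control cells received the same treatment, and a further set of control cells was unstimulated. The knockdown cells stably expressed 1 short hairpin RNA, driven by a U6 promoter in a retroviral vector that also encodes GFP and directed at a sequence shared by Brg1 and Brm, and transduced cells were selected by GFP. Brg1 and Brm (Smarca4 and Smarca2) are the alternative ATPases of the BAF nucleosome remodelling complex. Neither the labels nor the methods say what the control cells carry, and unstimulated knockdown cells were not analysed here, so a response to TNF within the knockdown line could not be measured.

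Interleukin-1α and interleukin-1β bind the same signalling receptor, IL-1R1, which recruits the accessory protein encoded by Il1rap and then the adaptor MyD88, leading to activation of NF-kB and MAP kinases. The antagonist encoded by Il1rn occupies IL-1R1 without recruiting the accessory protein, and the receptor encoded by Il1r2 binds ligand without signalling and so acts as a decoy. Interleukin-18 and interleukin-33 use related receptors of their own. Fibroblasts are known both as targets of interleukin-1 and as producers of interleukin-1α, which is active as a precursor and can be released from damaged cells, whereas interleukin-1β and interleukin-18 are made as inactive precursors that proteases such as caspase-1 cleave.

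Promoter sequences are shown for the ligand that responded to TNF, for the neighbouring ligand gene that did not reach the threshold, and for the antagonist and the ligand that were lower in the knockdown once arrays were paired. Each is the 250 bases before an annotated start in the RefSeq annotation of mouse build GRCm38.p6, written 5′ to 3′ on the gene's own strand. The Il1a sequence lies at chr2:129309973-129310222 on the minus strand, Il1b at chr2:129371140-129371389 on the minus strand, the first of 3 annotated Il1rn starts at chr2:24336610-24336859 on the plus strand, and Il18 at chr9:50554450-50554699 on the plus strand. Capitals mark TATAAA or TGANTCA, read on both strands.
Il1a: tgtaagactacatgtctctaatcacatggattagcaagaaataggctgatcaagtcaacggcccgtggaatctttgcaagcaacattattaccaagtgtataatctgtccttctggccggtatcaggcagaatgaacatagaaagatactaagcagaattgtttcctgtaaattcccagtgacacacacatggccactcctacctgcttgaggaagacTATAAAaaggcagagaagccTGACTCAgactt
Il1b: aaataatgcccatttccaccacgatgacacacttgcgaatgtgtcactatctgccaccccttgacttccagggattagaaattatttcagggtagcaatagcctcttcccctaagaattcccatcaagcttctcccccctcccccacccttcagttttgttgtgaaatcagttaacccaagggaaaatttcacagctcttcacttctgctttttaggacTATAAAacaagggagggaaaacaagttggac
Il1rn: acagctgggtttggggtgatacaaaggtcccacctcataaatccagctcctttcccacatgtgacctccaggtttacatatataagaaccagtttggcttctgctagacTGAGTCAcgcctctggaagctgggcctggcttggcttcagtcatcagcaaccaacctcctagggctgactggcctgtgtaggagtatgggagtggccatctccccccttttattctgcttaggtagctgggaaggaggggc
Il18: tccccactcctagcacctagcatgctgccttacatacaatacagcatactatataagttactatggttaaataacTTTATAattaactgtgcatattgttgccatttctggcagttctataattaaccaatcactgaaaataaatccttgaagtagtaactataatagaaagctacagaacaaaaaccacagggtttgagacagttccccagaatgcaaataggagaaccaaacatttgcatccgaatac
Il1a and Il1b both carried TATAAA close to the start, with its first base at -32 in Il1a and at -31 in Il1b. Il1a alone of these 4 sequences also had TGANTCA, the AP-1 consensus, next to the start, at -12, while that of Il1rn lay at -141. The match in Il18 was TTTATA, the reverse complement of TATAAA, at -175. The matches shown do not overlap one another.

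The arrays were comparable as deposited, with correlations between arrays from 0.992 to 0.998 and medians from 7.77 to 7.83 on the log2 scale. Smarca4 averaged 10.46 ± 0.19 in TNF-treated knockdown cells, 11.57 ± 0.04 in TNF-treated control cells and 11.62 ± 0.05 in unstimulated control cells (SD, n = 3 each; limma adjusted p = 0.0036 for knockdown against TNF-treated control cells). Smarca2 differed by -0.36 in that comparison without being called (limma adjusted p = 0.734). Within replicate numbers 1, 2 and 3 the Smarca2 difference was -0.39, -0.43 and -0.26. By quantitative RT-PCR, the paper reports both transcripts as reduced in the knockdown cells. All 8 fibroblast markers were measured, and their mean level per array was 11.97 to 12.06 in knockdown, 12.05 to 12.33 in TNF-treated control and 12.14 to 12.38 in unstimulated control cells. Leukocyte markers (9 measured) averaged 6.84 to 6.86, 6.83 to 6.93 and 6.81 to 6.87 in the same 3 groups, and 0 of them, of 6 epithelial and of 5 endothelial markers were called in any comparison with or without the block. As a guide to the floor, the 5th percentile of 1024 olfactory receptor genes, which fibroblasts are not expected to use, lay between 4.05 and 4.09 and their 95th percentile between 7.02 and 7.08 on the 9 arrays. In bulk RNA, fewer cells of a type and less RNA per cell cannot be told apart.

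Differences below are on the RMA log2 scale and were tested with limma over all genes, with p adjusted by the Benjamini-Hochberg method and a gene called at an adjusted p under 0.05. Arrays with the same replicate number deviated together from their group means, so a second fit with the replicate number as a block is given where it changes a call.

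Il1a, which encodes interleukin-1α, was induced by TNF. Its signal (transcript cluster 10487588) was 9.82, 8.60 and 9.76 on TNF-treated control arrays 1, 2 and 3, against 5.93, 5.59 and 6.71 on unstimulated control arrays 1, 2 and 3. Every treated array lay above every unstimulated array, and the unstimulated values all lay within the range of the olfactory receptor genes. The difference was 3.32 ± 0.41 (SE; 95% interval 2.38 to 4.25) and was the largest difference in signal among all genes tested (limma adjusted p = 0.0244, and 0.0059 with the replicate block). Since the unstimulated signal was not above the range of the olfactory receptor genes, no fold change is given. Within replicate numbers 1, 2 and 3 the difference was 3.89, 3.01 and 3.05. The call was lost when unstimulated array 1 (adjusted p = 0.178) or 2 (0.0832), TNF-treated control array 1 (0.162) or 3 (0.149), or knockdown array 2 (0.0507) was left out, while the difference stayed between 3.07 and 3.71. With the block, it was lost without the arrays of number 1 (adjusted p = 0.513).

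**Figure D1:**
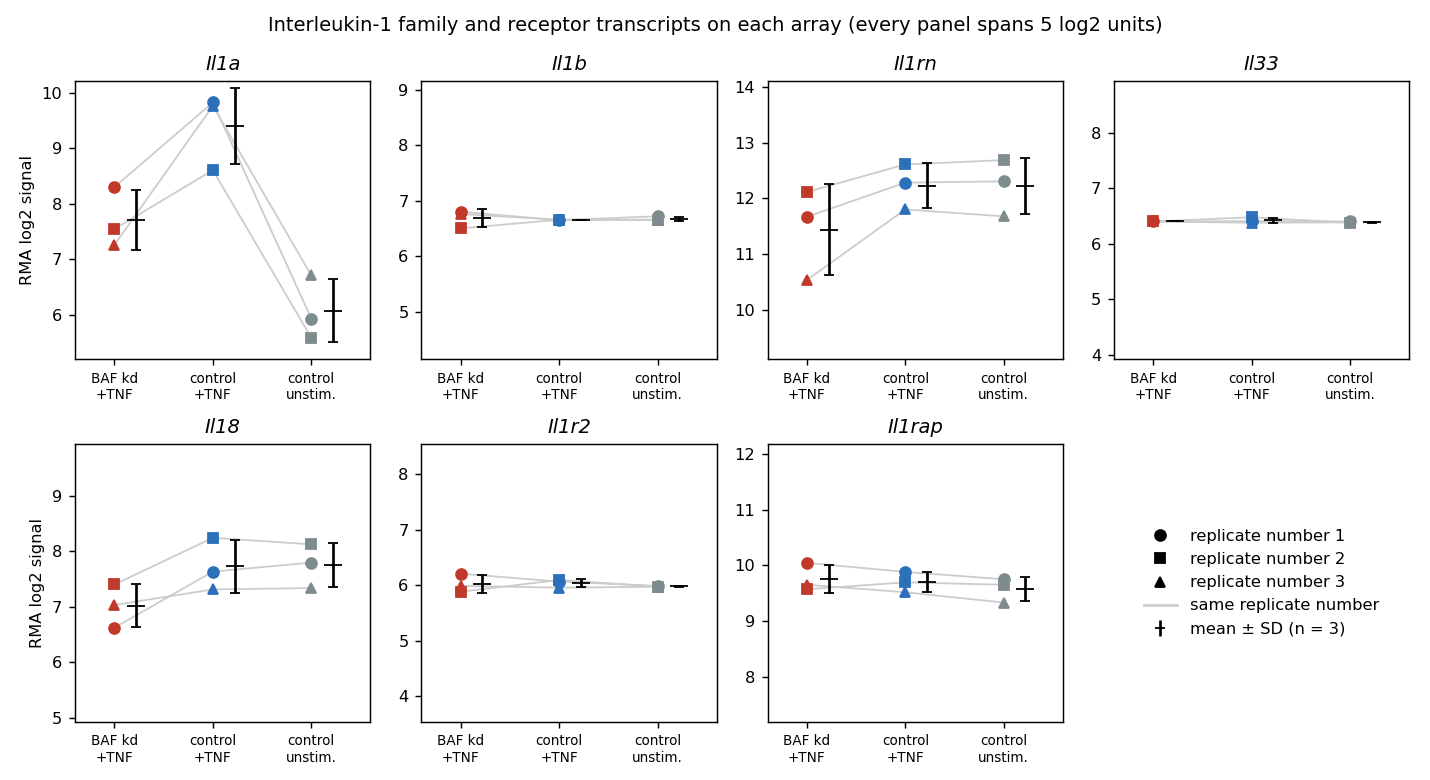
RMA log2 signal (vertical axis, 5 log2 units in every panel) of each measured member on every array, by group from left to right, with symbols and grey lines for the replicate number and black bars for mean ± SD (n = 3). Il1a peaks in TNF-treated control cells at 8.60 to 9.82 and has intermediate values in TNF-treated knockdown cells, Il1rn and Il18 lie lower in knockdown cells within each number, and Il1b, Il33 and Il1r2 form flat lines.

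The other members did not follow Il1a. Of 7 measured members, 1 was called higher after TNF, against 0.137% of all genes, and 1 with the block, against 0.366%. The arrays of the 2 control groups did not overlap for 1 of 7, Il1a, against 3.19% of all genes that were higher without overlap. The median difference over the 7 members was 0.03, beside -0.0020 over all genes.

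Il1b, which encodes the other agonist of IL-1R1 and neighbours Il1a on chromosome 2, gave a flat signal. Its signal was 6.81, 6.51 and 6.76 on knockdown arrays 1, 2 and 3, against 6.65, 6.66 and 6.66 on TNF-treated control arrays 1, 2 and 3. It was 6.72, 6.66 and 6.66 on unstimulated control arrays 1, 2 and 3. All 9 values lay within the range of the olfactory receptor genes. The difference after TNF was -0.02 (95% interval -0.19 to 0.15; limma adjusted p = 1), and that between knockdown and TNF-treated control cells was 0.03 (95% interval -0.14 to 0.20; adjusted p = 0.962). An interval this narrow on a signal near the floor bounds the array signal, and does not bound the transcript itself.

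Il1a was lower in BAF-knockdown than in control cells given TNF, a call that needed the paired arrays. The TNF-treated knockdown arrays 1, 2 and 3 read 8.30, 7.54 and 7.26, below all 3 TNF-treated control arrays and above all 3 unstimulated arrays. The difference from TNF-treated control cells was -1.69 ± 0.41 (95% interval -2.63 to -0.76), a 3.24-fold lower signal, and within numbers 1, 2 and 3 it was -1.52, -1.06 and -2.50. It was not called without the block (limma adjusted p = 0.186) and was called with it (adjusted p = 0.0309). With the block, it was not called when the arrays of number 1 (adjusted p = 0.320), 2 (0.0558) or 3 (0.0907) were left out, with differences from -2.01 to -1.29.

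Compared with unstimulated control cells, Il1a in TNF-treated knockdown cells was higher by 1.62 ± 0.41 (95% interval 0.69 to 2.56). The limma adjusted p was 0.132 without the block and 0.0254 with it. The call made with the block was lost without number 1 (adjusted p = 0.398) or 2 (0.0998), and was kept without number 3 (0.0196). Within numbers 1, 2 and 3 the difference was 2.36, 1.95 and 0.55. Knockdown cells of number 3 thus showed the smallest excess. That number had both the highest unstimulated value, 6.71, and the lowest knockdown value, 7.26. The part of either was not tested. Measured on the log2 scale, knockdown cells kept 48.9% of the rise seen in control cells, with 60.8%, 64.8% and 18.0% within numbers 1, 2 and 3 (SD 25.9). On the linear scale, which was added after seeing the data, the share was 23.2%, with 30.0%, 40.6% and 6.38% within the numbers (SD 17.5). The baseline in both shares is that of unstimulated control cells, whose signal lay within the range of the olfactory receptor genes, so the shares describe array signals and depend on where that floor lies. This comparison shares arrays with both others.

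Il1rn, which encodes the interleukin-1 receptor antagonist, did not respond detectably to TNF and was lower in the knockdown once the arrays were paired. Its signal (transcript cluster 10469816) was 11.67, 12.12 and 10.53 on knockdown arrays 1, 2 and 3, against 12.28, 12.61 and 11.80 on TNF-treated control arrays 1, 2 and 3. Unstimulated control arrays 1, 2 and 3 read 12.31, 12.69 and 11.68. In each group array 2 read highest and array 3 lowest, and the groups overlapped. Within numbers 1, 2 and 3 the knockdown differed from TNF-treated control cells by -0.62, -0.49 and -1.27. The mean difference was -0.79 ± 0.41 (1.73-fold lower), with an interval of -1.73 to 0.14 and a limma adjusted p of 0.692 without the block. With the block the interval was -1.10 to -0.48 and the adjusted p 0.0219. Of the 3 members called with the block, Il1rn also passed without number 2 (adjusted p = 0.0394) and without number 3 (0.0499), but not without number 1 (0.326).

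After TNF the Il1rn difference was 0.01, and the blocked interval of -0.30 to 0.32 leaves room for changes of that size in either direction. Against unstimulated control cells the knockdown differed by -0.79, close to its difference from TNF-treated control cells (limma adjusted p = 0.514, and 0.0157 with the block). This blocked call was lost without number 1 (0.258) and kept without number 2 (0.0316) or 3 (0.0248).

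Il18, which encodes interleukin-18, an inducer of interferon-γ in lymphocytes, was also lower in the knockdown with the block and gave no detectable response to TNF. Its signal (transcript cluster 10585194) was 6.62, 7.40 and 7.03 on knockdown arrays 1, 2 and 3, against 7.63, 8.24 and 7.31 on TNF-treated control arrays 1, 2 and 3. Its values on unstimulated control arrays 1, 2 and 3 were 7.79, 8.12 and 7.34. Knockdown array 2 overlapped with control array 3 of either treatment, and knockdown arrays 1 and 3 lay within the range of the olfactory receptor genes. Within numbers 1, 2 and 3 the knockdown differed from TNF-treated control cells by -1.01, -0.84 and -0.28, so the number with the largest difference for Il1rn had the smallest for Il18. The mean difference was -0.71 ± 0.29 (95% interval -1.36 to -0.06), with a limma adjusted p of 0.532 without the block and 0.0479 with it. Without number 1 (adjusted p = 0.417), 2 (0.184) or 3 (0.0559) the blocked fit no longer called it. After TNF the difference was -0.02 (95% interval -0.68 to 0.63), and against unstimulated control cells the knockdown differed by -0.73 (adjusted p = 0.356, and 0.0309 with the block). This blocked call was lost without number 1 (0.363) or 2 (0.111) and kept without number 3 (0.0335).

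**Figure D2:**
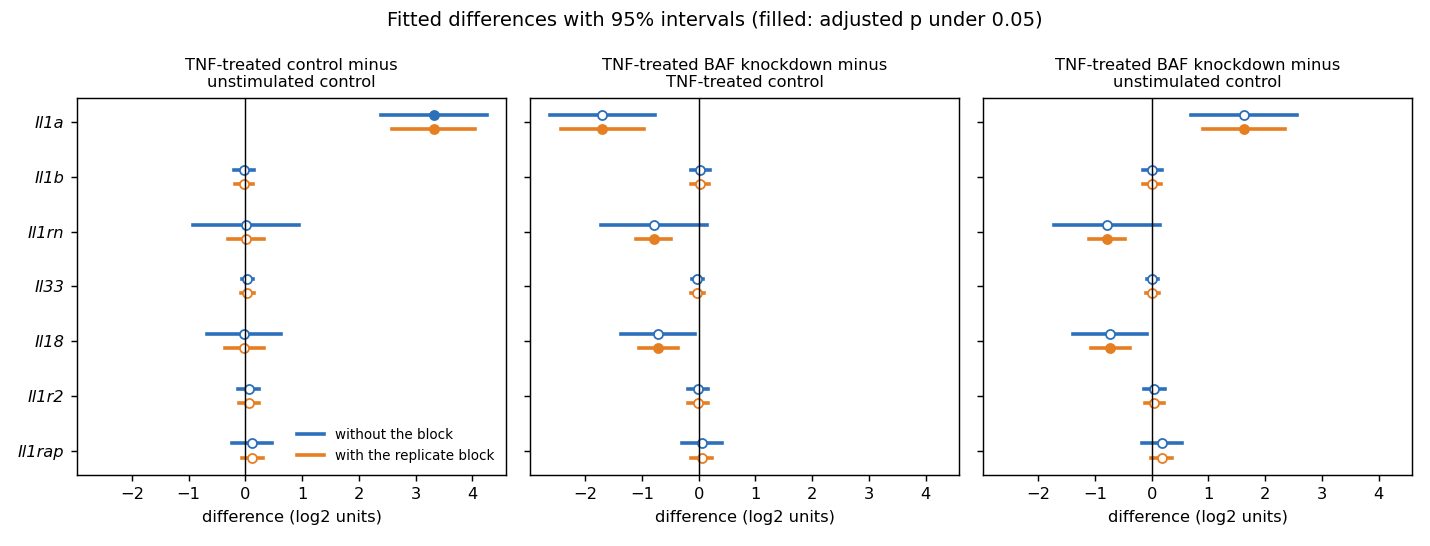
Fitted difference of each measured member (horizontal axis, log2 units) with its 95% interval in the 3 comparisons, without the replicate block in blue and with it in orange, where filled points have an adjusted p under 0.05. Only Il1a is filled after TNF, at 3.32, and in the knockdown Il1a, Il1rn and Il18 are filled with the block alone, at -1.69, -0.79 and -0.71.

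Without the block, 0 of 7 members were called between knockdown and TNF-treated control cells (limma), against 0.137% of all genes in either direction. An unadjusted p under 0.05 was reached by 2 of 7 (Il1a and Il18), against 1661 of all 19698 genes. With the block 3 of 7 were called lower, against 2.33% of all genes called lower. The same 3 were lower by more than 0.3 on the log2 scale, the limit that the methods set for genes that depend on BAF, against 3.27% of all genes. Knockdown and TNF-treated control arrays did not overlap for 1 of 7, Il1a, against 5.47% of all genes that were lower without overlap. The median member difference was -0.02, beside 0.01 over all genes. Against unstimulated control cells 0 of 7 were called, against 1.12% of all genes. Again 2 of 7 had an unadjusted p under 0.05, against 2358 of all 19698 genes. With the block 3 of 7 were called, Il1a higher and Il1rn and Il18 lower, against 5.34% in either direction, and 1 of 7 did not overlap, against 14.0%.

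A fibroblast marker was also lower in the knockdown with the block. All 8 such markers had a difference below 0 between knockdown and TNF-treated control cells, with a median of -0.12. Those of Sparc, Vim and Thy1 were small, at -0.00038, -0.0057 and -0.044. Pdgfra, the receptor for platelet-derived growth factor A, was called lower with the block (difference -0.57, limma adjusted p = 0.0080, and 0.630 without the block). This was 1 of 8 markers, against 2.33% of all genes called lower with the block. Like Il1rn, Pdgfra read highest on array 2 and lowest on array 3 of each group, at 10.47, 10.81 and 10.07 on knockdown arrays 1, 2 and 3, against 10.82, 11.46 and 10.78 on TNF-treated control arrays. It read 11.01, 11.50 and 10.68 on unstimulated control arrays. Against unstimulated control cells 7 of the 8 markers had a difference below 0, with a median of -0.20. Pdgfra (-0.61, limma adjusted p = 0.0037) and the collagen gene Col1a2 (-0.49, adjusted p = 0.0054) were called lower with the block, and 0 markers without it. That was 2 of 8 markers, against 662 of all 19698 genes called lower with the block. Values with a replicate number left out are not given for these markers. The part of these shifts in the values of Il1rn and Il18 was not tested.

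Il33 encodes a nuclear cytokine released on cell damage. Its signal was 6.40 on all 3 knockdown arrays, against 6.41, 6.48 and 6.38 on TNF-treated control arrays 1, 2 and 3. It was 6.40, 6.38 and 6.39 on unstimulated control arrays 1, 2 and 3. All 9 values lay within the range of the olfactory receptor genes. The differences were 0.03 after TNF (95% interval -0.06 to 0.13) and -0.02 in the knockdown (95% interval -0.12 to 0.08, limma adjusted p = 0.957). As for Il1b, these narrow intervals bound the array signal and do not bound the transcript itself. The value was exactly the same on 4 of the 9 arrays, including all 3 knockdown arrays. Over all transcript clusters, 50.9% held the same value on at least 2 arrays, a looser limit than the 4 arrays of Il33.

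Neither receptor gene was called in any comparison, with or without the block. Il1r2, the decoy receptor, read 6.21, 5.88 and 5.99 on knockdown arrays 1, 2 and 3, against 6.07, 6.09 and 5.96 on TNF-treated control arrays. On unstimulated control arrays it read 5.99, 5.97 and 5.97, so all 9 values lay within the range of the olfactory receptor genes. Its differences were 0.06 after TNF (95% interval -0.12 to 0.24) and -0.01 in the knockdown (95% interval -0.20 to 0.17). Il1rap, the accessory chain shared by the receptors for interleukin-1, interleukin-33 and interleukin-36, lay above that range on every array. It read 10.05, 9.57 and 9.65 on knockdown arrays 1, 2 and 3, against 9.88, 9.70 and 9.52 on TNF-treated control arrays. On unstimulated control arrays it read 9.75, 9.65 and 9.33, and the 3 groups overlapped. The differences of Il1rap were 0.12 after TNF (95% interval -0.23 to 0.47), 0.06 in the knockdown (95% interval -0.29 to 0.41), and 0.18 for knockdown against unstimulated control cells (limma adjusted p = 0.713).

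The rest of the interleukin-1 system was read from 4 further lists, in which 40 of 43 genes were measured. Without the block, 0 of the 40 were called in any comparison (limma). An unadjusted p under 0.05 was found for 4 after TNF, 6 in the knockdown and 7 for knockdown against unstimulated control cells. In the same order, 605, 1661 and 2358 of all 19698 genes had an unadjusted p under 0.05. The other ligands and binding proteins (6 of 6 measured) had a median difference of 0.04 after TNF and 0.03 in the knockdown. Their leading genes after TNF encode interleukin-36 cytokines, which signal through a receptor that shares the Il1rap chain and are named by older symbols in the files. Il1f9, which encodes interleukin-36γ, read 6.55, 6.94 and 6.15 on knockdown arrays 1, 2 and 3, against 6.87, 7.21 and 6.77 on TNF-treated control arrays. On unstimulated control arrays it read 6.37, 6.28 and 6.04, below all 3 treated control arrays. The Il1f9 difference after TNF was 0.72 ± 0.19 (SE), with a limma adjusted p of 0.795 without the block and 0.0472 with it. That call was lost without the arrays of number 1 (adjusted p = 0.810), 2 (0.0768) or 3 (0.418), and 8 of the 9 values lay within the range of the olfactory receptor genes. Il1f6, which encodes interleukin-36α, differed by 0.51 after TNF without a call in either fit (limma adjusted p = 0.436, and 0.156 with the block). All Il1f6 values (5.51 to 6.31) lay within the range of the olfactory receptor genes. Il1f9 was thus 1 call of 40 with the block, against 0.366% of all genes called higher. In the knockdown Il1f9 differed by -0.40 and Il1f6 by -0.26, and neither was called.

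Of the other receptors, 6 of 7 were measured and 0 were called with or without the block, with median differences of 0.04 after TNF and 0.00 in the knockdown. Il1rl2, the interleukin-36 receptor, differed by 0.19 after TNF and -0.25 in the knockdown. Il18rap, the accessory chain of the interleukin-18 receptor, differed by 0.08 after TNF and -0.24 in the knockdown. All values of Il1rl2 (5.28 to 5.78) lay within the range of the olfactory receptor genes. Those of Il18rap (6.46 to 7.05) lay near or below the upper end of that range.

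**Figure D3:**
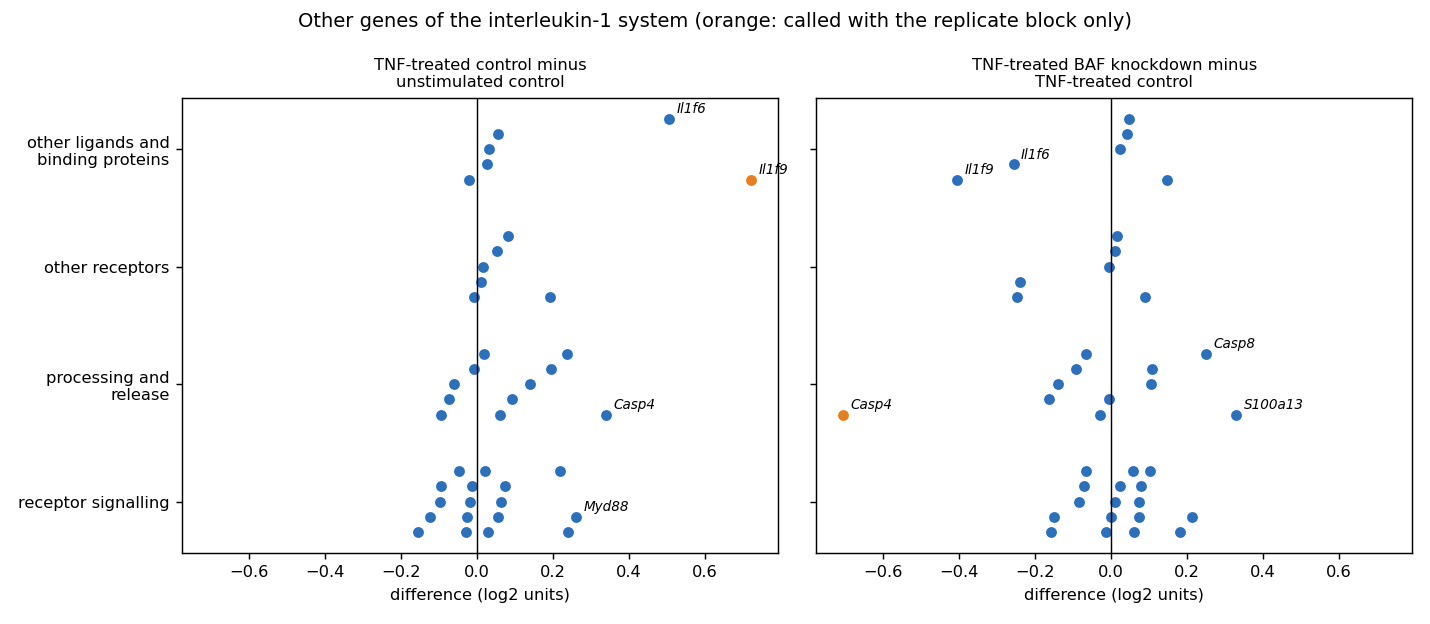
Differences (horizontal axis, log2 units) of the 40 measured genes of the 4 further lists after TNF (left) and in the knockdown (right), 1 point per gene, with vertical spread within a list only for legibility. Orange points are called with the replicate block: Il1f9 at 0.72 after TNF and Casp4 at -0.70 in the knockdown.

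Among the genes of processing and release (11 of 11 measured), 1 was called lower in the knockdown, with the block only. Casp4, which encodes caspase-11 in the mouse, an inflammatory protease that senses cytosolic lipopolysaccharide, read 7.89, 8.31 and 7.89 on knockdown arrays 1, 2 and 3, against 8.75, 8.99 and 8.45 on TNF-treated control arrays. On unstimulated control arrays it read 8.44, 8.76 and 7.97. The knockdown arrays all lay below the TNF-treated control arrays, and the difference was -0.70 ± 0.22 (1.63-fold lower; limma adjusted p = 0.338 without the block and 0.0067 with it). Without number 1 the blocked adjusted p was 0.212, and without number 2 or 3 it was 0.0382 or 0.0316. This was 1 call of 40 with the block, a share near the 2.33% of all genes called lower. Casp4 differed by 0.34 after TNF and was not called in either fit. S100a13, whose product has been implicated in the release of interleukin-1α, differed by 0.33 in the knockdown (adjusted p = 0.377, and 0.0708 with the block).

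Against unstimulated control cells, knockdown cells had 3 further calls with the block among the 40 genes of the 4 lists, against 5.34% of all genes. Casp8, an initiator caspase that can also process interleukin-1β, was higher by 0.49 (limma adjusted p = 0.0956, and 0.0209 with the block). Capn1, which encodes a calpain, a class of proteases that cleave the interleukin-1α precursor, was lower by 0.26 on the log2 scale (difference -0.26; adjusted p = 0.133, and 0.0451 with the block). Myd88, the adaptor of the receptor complex, was higher by 0.44 (adjusted p = 0.0595, and 0.0114 with the block). Without number 1 the blocked adjusted p was 0.374 for Casp8, 0.272 for Capn1 and 0.264 for Myd88, and without number 3 it was 0.177, 0.177 and 0.115 for the same genes. Without number 2, Casp8 (0.0058) and Myd88 (0.0115) passed and Capn1 (0.164) did not.

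Of the receptor signalling genes, 17 of 19 were measured, and 0 were called after TNF or in the knockdown in either fit. Their median differences were -0.01 after TNF and 0.03 in the knockdown. The largest after TNF were those of Myd88 at 0.26 and of Peli3, a ubiquitin ligase of the pathway, at 0.24. Irak2, a kinase recruited through MyD88, had the largest in the knockdown at 0.21.

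The members differed in promoter composition. Among 32851 RefSeq windows from 250 bases before to 50 after a start, 33.3% were CpG-rich (GC above 50% and observed over expected CpG above 0.6, the limits that the study's methods use for CpG islands, applied here to a shorter window). The Il1a window had 44.7% GC and a CpG ratio of 0.334, that of Il1b 45.7% and 0.202, and that of Il18 36.7% and 0.101. The 3 Il1rn windows had 54%, 46.7% and 46% GC with CpG ratios of 0.0457, 0.333 and 0.259, so 0 of the windows of Il1a, Il1rn and Il18, the members called in the knockdown with the block, were CpG-rich. The windows of Il1b and Il33, which were not called, were not CpG-rich either. Il1rap (72% GC, ratio 0.851) and Il1r2 (51.3%, 0.812) were CpG-rich, and neither was called. The signals of Il1b, Il33 and Il1r2 lay within the range of the olfactory receptor genes, where a lower level could hardly be called. A link between promoter composition and the knockdown was not tested.

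**Figure D4:**
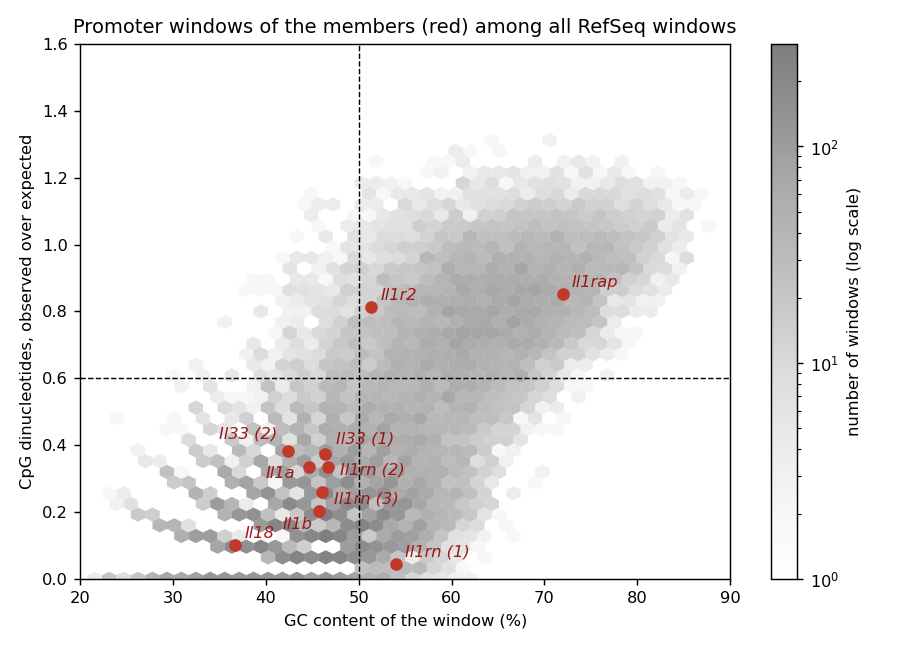
GC content (horizontal axis, percent) against the ratio of observed to expected CpG dinucleotides (vertical axis) of promoter windows of the measured members (red, with the number of the start where there are several) over the density of all 32851 RefSeq windows (grey, log scale). Dashed lines mark 50% and 0.6, and only Il1r2 and Il1rap lie above both.

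Over all windows, TATAAA occurred in 13.6%, TGANTCA in 7.81%, the cyclic AMP response element TGACGTCA in 1.79% and the NF-kB consensus in 5.8%. In the members' windows TATAAA was found in Il1a, Il1b, both Il33 windows, Il18 and the third Il1rn window, and TGANTCA in Il1a and the first Il1rn window, with 0 matches to the other 2 motifs. A match describes the letters of the window, and these arrays do not measure binding. The array signal could not be assigned to 1 of the 3 Il1rn starts.

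The genes whose level over the 9 arrays was most like that of a member were listed for the 3 members with the widest range of group means. For Il1a they were Slfn2, Ptgs2 and Neurl3, with Pearson's r of 0.941, 0.933 and 0.923. Il1rn was most like Tmem64, Colec12 and Nt5dc2 (r = 0.989, 0.984 and 0.979), and Il18 most like Slco1a6, Spag1 and Hadh (r = 0.989, 0.984 and 0.982). The lists for the 3 members share no gene. These are the highest values among all genes tested, over 9 arrays that share their groups and replicate numbers, and are given as a description.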

How the data were processed

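Deposited values were log2 signals from RMA (background correction, quantile normalisation and median polish summary) computed by the authors with the affy package of Bioconductor for 27024 transcript clusters. Platform annotation gave 1 symbol for 21319 clusters, several for 1430 and none for 4275. For each symbol the cluster with the highest mean was kept, leaving 19698 genes. Arrays give no read depth, so their number (3 per group) limits the precision.

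Groups were fitted in R 4.3.3 by limma 3.58.1 (eBayes after lmFit on 9 arrays with a mean for each group, leaving 6 residual degrees of freedom, or 4 with the replicate block), two-sided, with Benjamini-Hochberg adjustment over all genes. The replicate numbers pair the arrays, since deviations from the group means correlated within a number (r from 0.210 to 0.724 over 9 pairs, against -0.566 to 0.0111 over 18 pairs of different numbers; the minimum was 0.1). The script was tested on simulated data without a replicate effect, and the check was on the mean size of the fitted differences. It therefore does not test the calls made with the block. Without the block, p-values measure the spread between these cultures within a group. With the block, they measure the spread left after differences between replicate numbers are removed. Neither covers the spread between hairpins, since 1 was used.

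Alternatives were each array left out, median centring, array weights, a trended prior, fits of only 2 groups, dim genes left out, all clusters of a symbol averaged and the unpaired t-test that the methods state for induced genes, applied here to every comparison. Members, lists and tests were chosen with earlier results of these data known. Besides the members, the text names list genes called in any fit, the 2 with the largest absolute difference per list after TNF and in the knockdown, and the genes most like a member. Promoter windows came from RefSeq (GRCm38.p6).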

Additional observations from a re-analysis of the deposited data

How the results depend on the processing

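Numbers of called members depended on few arrays. After TNF, 1 of 7 was called, and between 0 and 1 when each array was left out in turn, 0 when only the 2 groups compared were fitted (Il1a adjusted p = 0.132), and 0 by the methods' t-test after Benjamini-Hochberg (1 before it). In the knockdown 0 were called without the replicate block and 3 with it. A difference over 0.3 with no test, which is how the methods define genes that depend on BAF (added after seeing the data), was met by 3. The methods state the t-test for induced genes only. Applied here together with a difference over 0.3, it called 1 member, Il1a, in the knockdown. Against unstimulated control cells 0 were called without the block, 3 with it and 1, Il1a, by that t-test. With the block, the arrays of each number were also left out in turn (chosen after seeing the data). The counts then ranged from 0 to 1 after TNF, 0 to 1 in the knockdown and 0 to 3 against unstimulated cells. Each of these counts was 0 without number 1. Fewer samples and residual degrees of freedom remained, to the same extent, whichever number was left out. Centring, array weights, the trended prior, leaving out dim genes and averaging clusters kept these counts. The share of the Il1a rise kept was 39.9% to 55.6% with arrays left out.

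Signs turned only in small differences that were not called. With arrays left out the difference after TNF ranged from -0.28 to 0.18 for Il18, -0.27 to 0.24 for Il1rn and -0.0025 to 0.21 for Il1rap. In the knockdown it ranged from -0.088 to 0.15 for Il1rap, -0.024 to 0.13 for Il1b, -0.10 to 0.059 for Il1r2 and -0.041 to 0.0074 for Il33. Against unstimulated cells it ranged from -0.046 to 0.10 for Il1b and -0.043 to 0.12 for Il1r2. With array weights Il1rn differed by -0.051 after TNF, Il1rap by -0.014 in the knockdown and Il1b by -0.0085 against unstimulated cells. The cause was not tested. Il1b, Il33 and Il1r2 lay near the floor of the array, which limits what their differences can show.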
